A study of Rattus norvegicus with 6 samples.

Results

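The genes Gapdh (ENSRNOG00000018630), Actb (ENSRNOG00000034254) and Vim (ENSRNOG00000018087) were followed in the sequencing counts of rBMSCs from 3D and 2D Nichoids. They were taken by Ensembl identifier, as genes used as qPCR references and as genes of the cytoskeleton, and all 3 were found among the 32883 gene identifiers counted. rBMSCs are primary mesenchymal stem cells from the bone marrow of Lewis rats, kept in culture for few passages. The number and age of the donor animals are not given in the sources used here. The 3D Nichoid is a polymerized scaffold of stacked grids that cells enter, and the 2D Nichoid, a single layer of the same grid on glass, was the flat control. Both groups received the same culture medium and were lysed at day 4, with 3 libraries each, replicates A, B and C. Nothing in the labels says whether the replicates were separate isolations of cells, so the p values measure the spread between these libraries, which may be technical. The tests run across all genes estimate that spread partly from other genes, not from each gene alone.

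Gapdh encodes glyceraldehyde-3-phosphate dehydrogenase, the glycolytic enzyme that oxidizes glyceraldehyde-3-phosphate, and it was the gene to which the qPCR of the study was normalized. Actb encodes β-actin, which polymerizes into the filaments that carry tension between focal adhesions, and its transcription is known to depend on serum response factor and on the pool of free actin. Vim encodes vimentin, the intermediate filament protein of mesenchymal cells, whose network surrounds the nucleus and resists deformation. A qPCR reference gene serves as the denominator of every other gene, so a difference in the reference between substrates enters each ratio with the opposite sign.

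Vim was higher in 3D Nichoids, by 1.26-fold (95% interval 1.24 to 1.28). Gapdh was also higher, by 1.06-fold (1.03 to 1.08), while for Actb no difference was detected, with a fold of 1.01 (0.990 to 1.02). These values come from counts scaled with TMM factors, which set the libraries to a common level for the bulk of genes. The directions of Gapdh and Actb depended on that scaling, and the direction of Vim did not in any scaling tried (total counts, total counts without the 10 most counted genes, RLE, upper quartile and TMM factors).

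Promoter sequence was found for 2 of the 3 genes, Gapdh and Vim. None was available for Actb, so no motif could be sought there. The 100 bases before the start site are shown 5′ to 3′ on the strand of the gene, from RefSeq on build GRCr8, to set out the core promoters of the glycolytic and the cytoskeletal gene side by side. They were matched by symbol, and the deposited counts were made on another build. Capitals mark the motif TATAAA, the core of the TATA box, which positions the transcription machinery.
Gapdh, chr4:159652468-159652567, minus strand: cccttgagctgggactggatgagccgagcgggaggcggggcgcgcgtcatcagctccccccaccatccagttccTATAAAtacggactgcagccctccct
Vim, chr17:81577161-81577260, plus strand: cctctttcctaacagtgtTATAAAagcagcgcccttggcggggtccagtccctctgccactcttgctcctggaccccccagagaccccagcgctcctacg
The motif began 26 bases before the start in Gapdh and farther from it, 82 bases before, in Vim. Whether either match works as a TATA box for the listed start was not tested. Searched on both strands in windows from 250 bases before to 50 bases after the start, the motif was held by 14.2% of 33469 promoters. The motif CCAAT, with which it shares no overlap, was found once in the Vim window, on the opposite strand, and not in the Gapdh window, and 37.5% of promoters held it. The CArG box, the site of serum response factor, was in neither window, and 1.64% of promoters held it. These matches describe letters in a window and were not set against any binding data.

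The libraries held 38747857 to 41860684 counts for 3D Nichoids and 38353363 to 39112286 for 2D Nichoids. The members were counted deeply, so that counting error alone amounted to 0.426% of the mean for Gapdh, 0.155% for Actb and 0.147% for Vim. The cell type was not checked against its other markers, since no symbols accompany the identifiers. Vim, itself characteristic of mesenchymal cells, made up 1.26% to 1.29% of the counts of the 3D libraries and 1.08% to 1.09% of those of the 2D libraries. Levels are not ranked between the 3 genes, because transcript lengths were not used here. In bulk RNA, a change in the RNA of each cell and a change in the make-up of the cells cannot be told apart.

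For Gapdh, the 3D libraries A, B and C held 56926, 53823 and 56539 reads and the 2D libraries 53757, 53758 and 55497. After TMM scaling these corresponded to 1413, 1436 and 1458 CPM (counts scaled to a common library size) in the 3D group and to 1354, 1354 and 1366 CPM in the 2D group. Every 3D library lay above every 2D library, and the 3D libraries were spread more widely. The means were 1436 ± 22.7 CPM (SD, n = 3) and 1358 ± 6.81 CPM (SD, n = 3). The log2(FC) was 0.080 (SE 0.017), with a 95% interval from 0.046 to 0.114 and an adjusted p value of 0.000163 by the quasi-likelihood test of edgeR.

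When the counts were divided by the total counts alone, Gapdh had 1360, 1389 and 1408 CPM in the 3D group and 1401, 1402 and 1419 CPM in the 2D group. On that scale the groups overlapped and the 3D mean was the lower, with a log2(FC) of -0.022 (adjusted p value 0.305, edgeR). The TMM factors that separate the scales were 0.963 to 0.967 for the 3D libraries and 1.03 to 1.04 for the 2D libraries. A single gene, the one with most counts, made up 5.69% to 5.73% of the 3D libraries and 4.21% to 4.25% of the 2D libraries, and its part in the Gapdh result was not tested on its own. With the 10 most counted genes left out of the totals, the log2(FC) of Gapdh was 0.017 (adjusted p value 0.460, edgeR).

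For Actb, the 3D libraries A, B and C held 434248, 391118 and 407016 reads and the 2D libraries 422737, 417785 and 420032. With TMM scaling these were 10776, 10434 and 10496 CPM in the 3D group against 10651, 10520 and 10338 CPM in the 2D group. Replicate A of the 3D Nichoids was the highest of the 6 libraries and replicate C of the 2D Nichoids the lowest, and the groups overlapped. The means were 10569 ± 182 CPM (SD, n = 3) and 10503 ± 158 CPM (SD, n = 3). The log2(FC) was 0.0090 (SE 0.012, adjusted p value 0.595, edgeR), with a 95% interval from -0.015 to 0.033.

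On total counts the picture of Actb was another. It had 10374, 10094 and 10133 CPM in 3D Nichoids against 11014, 10893 and 10739 CPM in 2D Nichoids, with every 3D library under every 2D library and a log2(FC) of -0.093 (adjusted p value 4.80e-09, edgeR). With upper quartile factors the log2(FC) was 0.034 (adjusted p value 0.0230, edgeR). Actb was therefore called lower, called higher or not called, depending on the scaling, within a range of log2(FC) from -0.093 to 0.034.

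For Vim, the 3D libraries A, B and C held 526648, 492228 and 516819 reads and the 2D libraries 418303, 414708 and 424685. With TMM scaling these were 13069, 13132 and 13328 CPM against 10539, 10443 and 10452 CPM. Every 3D library exceeded every 2D library, in raw counts as well as on both scales. The means were 13176 ± 135 CPM (SD, n = 3) and 10478 ± 53.3 CPM (SD, n = 3). The log2(FC) was 0.331 (SE 0.010, adjusted p value 1.79e-27, edgeR), with a 95% interval from 0.310 to 0.351. On total counts it was 0.228 (adjusted p value 1.02e-21, edgeR), and with upper quartile factors 0.356 (adjusted p value 1.49e-28, edgeR).

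**Figure D1:**
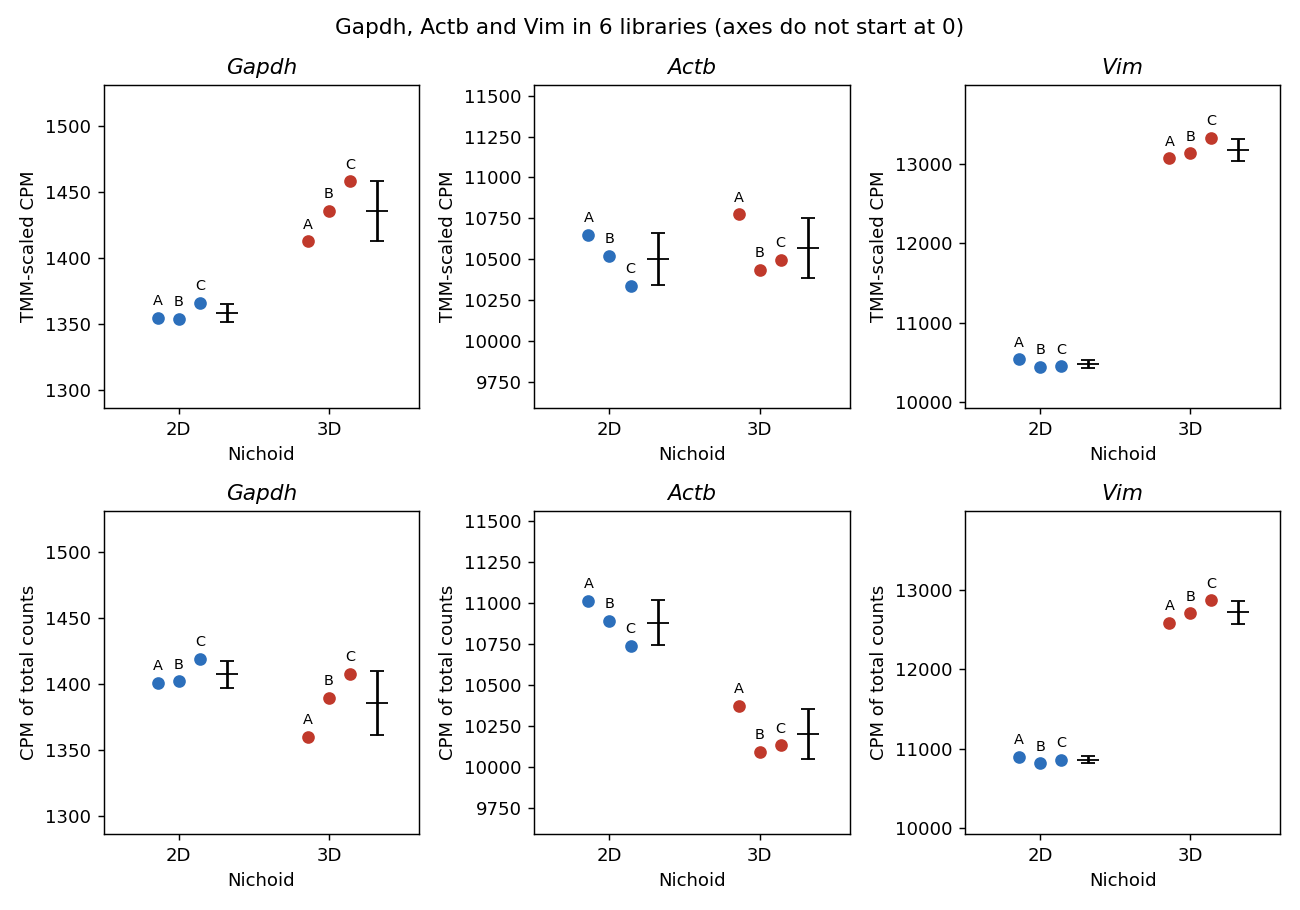
CPM of Gapdh, Actb and Vim in each library (points, replicates A, B and C) of 2D and 3D Nichoids, with the mean and SD of 3 libraries beside them, after TMM scaling (upper row) and after division by total counts alone (lower row). Vim lies higher in 3D Nichoids in both rows, Gapdh only in the upper row, and Actb lies lower in 3D Nichoids in the lower row.

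None of the 3 genes reached the cutoff of the study on size, an absolute log2(FC) above 1, which 3.42% of the 13523 tested genes passed together with an adjusted p value of at most 0.05. On the adjusted p value alone, 2 of the 3 genes were called, Gapdh and Vim, beside 37.8% of all tested genes. Deeply counted genes were called more often. Of the 1779 genes with a mean of at least 100 CPM, 73.8% were called, 44.1% as higher and 29.7% as lower in 3D Nichoids. The groups did not overlap on the TMM scale in 46.9% of all tested genes, and in Gapdh and Vim among the members. Among the other genes within 2-fold of a member's mean CPM, 116 of 128 were called around Gapdh, 8 of 9 around Actb and 7 of 7 around Vim. Of those around Vim, 4 had a smaller absolute log2(FC) than Vim. On the TMM scale a call was therefore the usual outcome for genes counted as deeply as these. Actb had none on that scale, but it was called lower on total counts and higher with upper quartile factors.

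Among the same 1779 genes, 25.5% had a smaller absolute log2(FC) than Gapdh, 2.42% a smaller one than Actb and 79.7% a smaller one than Vim. The median log2(FC) of these genes was 0.043, so the typical deeply counted gene lay a little to the side of 3D Nichoids on the TMM scale. An absolute log2(FC) of at most 0.1, within which Gapdh and Actb fell, was found in 569 of them (32.0%). Gapdh also shared its direction with its neighbours in level. Of the 128 genes within 2-fold of its mean CPM, 97 were called higher and 19 lower in 3D Nichoids, and their median absolute log2(FC) was 0.223.

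**Figure D2:**
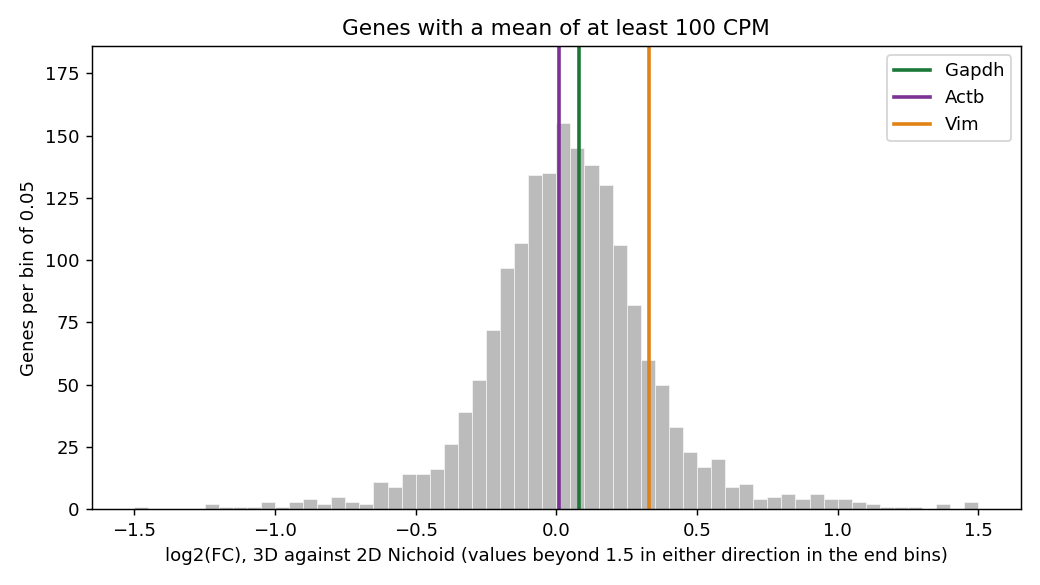
Number of genes per log2(FC) bin, 3D against 2D Nichoids with TMM scaling, for the 1779 genes with a mean of at least 100 CPM (grey bars), with lines at the log2(FC) of Gapdh, Actb and Vim. Actb (0.0090) and Gapdh (0.080) lie in the middle of the distribution and Vim (0.331) on its right flank.

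As references, genes are judged by how little they vary over all samples. On the TMM scale, the coefficient of variation (CV, the SD as a percentage of the mean) over the 6 libraries was 1.48% for Actb, 3.22% for Gapdh and 12.5% for Vim. Of the 1779 deeply counted genes, 24 varied less than Actb (1.35%), 261 less than Gapdh (14.7%) and 1394 less than Vim (78.4%). On total counts the order of the first pair turned. Gapdh then had a CV of 1.45% with 30 genes below it (1.69%), Actb 3.75% with 373 genes below it (21.0%), and Vim 8.68% with 1074 genes below it (60.4%). Vim was the most variable of the 3 on both scales.

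Within a group the picture differed from that over all libraries. The CV of Vim was 1.03% in 3D and 0.508% in 2D Nichoids, against 1.72% and 1.5% for Actb and 1.58% and 0.502% for Gapdh. The other genes within 2-fold of the mean CPM of each member had median CVs of 1.10% in 3D and 1.28% in 2D Nichoids around Gapdh (128 genes), 0.496% and 1.80% around Actb (9 genes), and 0.496% and 1.13% around Vim (7 genes). On the TMM scale, all 3 members therefore had a larger CV than the median of their peers in 3D Nichoids, and a smaller one in 2D Nichoids. The peers of Actb and Vim were few and came from overlapping ranges of level, so their comparisons are not separate. All 6 values exceeded the counting error of the gene, that of Gapdh in 2D Nichoids by little (0.502% against 0.426%). Each rests on 3 libraries, and the CVs of the 2 substrates were not tested against each other.

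Ratios between members within a library do not depend on any scaling. The ratio of Vim to Gapdh counts was 9.25, 9.15 and 9.14 in the 3D libraries A, B and C, against 7.78, 7.71 and 7.65 in the 2D libraries. The groups stood well apart, with a difference in mean log2 ratio of 0.251 (SE 0.0090, two-sided exact permutation test, p = 0.1, adjusted p = 0.15 over 3 ratios). That p is the smallest that 3 libraries against 3 can give. The ratio of Vim to Actb was 1.21, 1.26 and 1.27 in the 3D libraries against 0.990, 0.993 and 1.01 in the 2D libraries. Again no library crossed over, and the difference in mean log2 ratio was 0.322 (SE 0.022, exact permutation test, p = 0.1, adjusted p = 0.15).

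Between the references the separation was smaller. The ratio of Actb to Gapdh was 7.63, 7.27 and 7.2 in the 3D libraries against 7.86, 7.77 and 7.57 in the 2D libraries. Replicate A of the 3D Nichoids lay above replicate C of the 2D Nichoids, so the groups overlapped. The difference in mean log2 ratio was -0.071 (SE 0.031, exact permutation test, p = 0.2, adjusted p = 0.2), and it ranged from -0.097 without replicate A to -0.055 without replicate C of the 3D Nichoids over the fits that leave out 1 library (exact p from 0.1 to 0.3). The model across all genes gave a lower p for the same quantity. With libraries scaled to Gapdh, Actb was lower by a log2(FC) of -0.071 (adjusted p value 0.0015, edgeR, SE 0.018). With libraries scaled to Actb, Gapdh was higher by one of 0.071 (adjusted p value 0.0206, edgeR, SE 0.025). The difference between Gapdh and Actb thus passed the threshold in the model and not in the exact test. That test cannot reach 0.05 at this size, and its p of 0.2 was also above the smallest possible, 0.1.

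**Figure D3:**
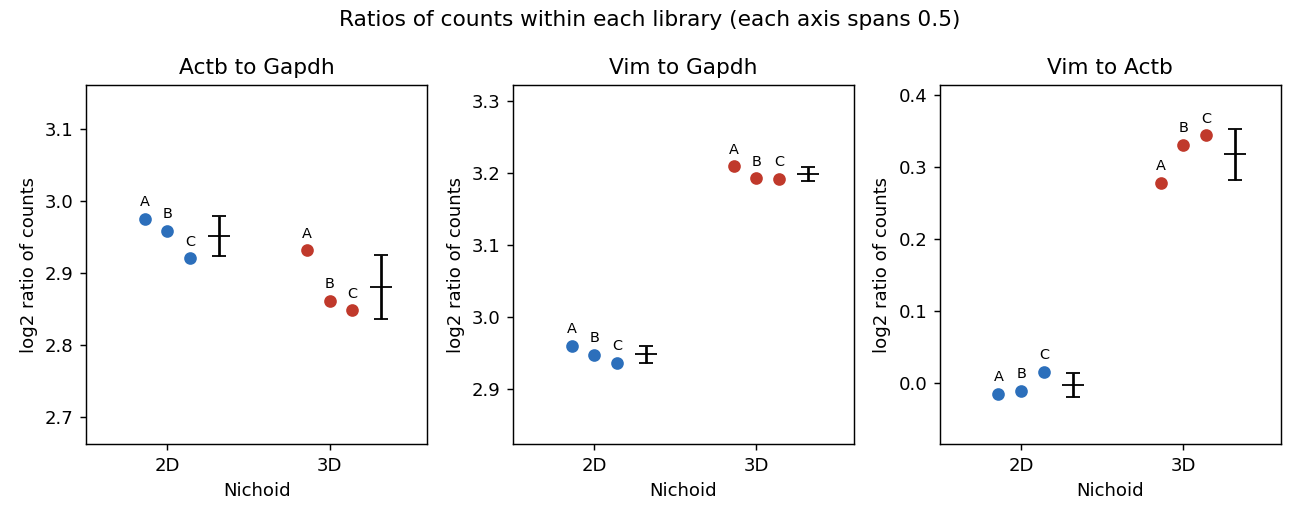
Log2 ratio of the counts of each pair of genes within each library (points, replicates A, B and C), with the mean and SD of 3 libraries, in 2D and 3D Nichoids. The ratios of Vim to Gapdh and Vim to Actb stand apart between the groups, by 0.251 and 0.322, while the ratios of Actb to Gapdh overlap.

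The SD of a log2 ratio over the 6 libraries was 0.051 for Actb to Gapdh, 0.138 for Vim to Gapdh and 0.178 for Vim to Actb. The average of the SDs in which a gene takes part, the measure by which qPCR reference panels are often ranked, was 0.094 for Gapdh, 0.115 for Actb and 0.158 for Vim. By this measure, which favors genes that move together, Gapdh came first. Gapdh and Actb share the SD of their own ratio, so their order here was set by their ratios to Vim alone. It does not tell which of them was the steadier. On the TMM scale Actb came first, and Vim came last on either.

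The effect of each gene as a denominator was then computed for the whole transcriptome, by scaling the libraries so that the gene had the same level in all 6. A gene without difference on the TMM scale would appear at 0.946-fold in 3D Nichoids relative to Gapdh, at 0.994-fold relative to Actb and at 0.795-fold relative to Vim. With TMM factors, 2560 genes were called higher and 2549 lower in 3D Nichoids. Total counts alone gave 1638 and 4161, and totals without the 10 most counted genes 1970 and 3518. Scaled to Actb, 2384 were higher and 2567 lower (36.6% of the 13522 genes tested), with 188 calls of the TMM scale lost and 30 new. Scaled to Gapdh, 1759 were higher and 3725 lower (40.6% of genes), with 800 calls lost and 1176 new. The share of called genes that were higher in 3D Nichoids was 50.1% with TMM and 32.1% with Gapdh. Such a scaling moves all genes by about one amount, here a median log2(FC) of -0.080 for Gapdh and -0.0091 for Actb. These amounts mirror the log2(FC) of each gene on the TMM scale. Lost and new calls were counted against TMM and follow from that, so they do not rank the genes as references. Calls were not set against those on total counts, where the log2(FC) was -0.022 for Gapdh and -0.093 for Actb.

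Scaling to Vim moved more calls. Only 644 genes were then higher and 7831 lower (62.7% of genes), so that 7.60% of the called genes were higher in 3D Nichoids. The shift was -0.330, with 1291 calls of the TMM scale lost and 4658 new. Of the 3817 calls shared with the TMM scale, 624 had the opposite direction. With Gapdh or Actb as scale, 0 shared calls did. With the geometric mean of the 3 genes, 1404 were higher and 4818 lower (46% of genes). With the geometric mean of Gapdh and Actb alone, which was added once the other results were known, 2103 were higher and 3184 lower (39.1% of genes).

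Genes past the size cutoff were less affected by Gapdh and Actb. On the TMM scale 463 genes passed both cutoffs (edgeR), which became 458 with Actb, of which 456 were shared, and 458 with Gapdh, of which 419 were shared. Among the 458 with Gapdh, 234 were upregulated and 224 downregulated, against 278 and 185 with TMM. With Vim as reference 648 passed, 141 upregulated and 507 downregulated, and 326 were shared with TMM.

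**Figure D4:**
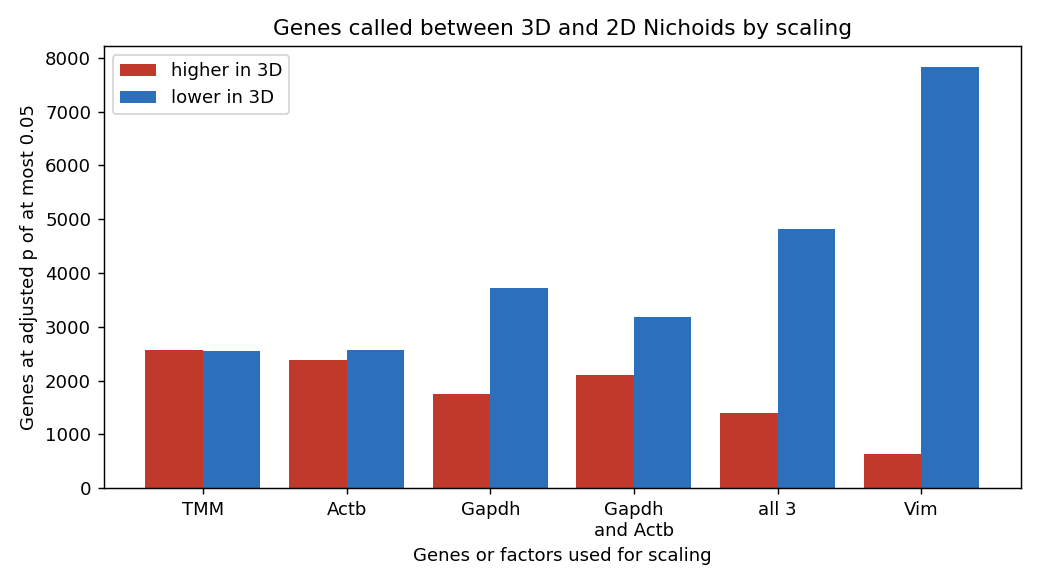
Number of genes called by edgeR (adjusted p value at most 0.05) as higher (red) or lower (blue) in 3D than in 2D Nichoids, according to what the libraries were scaled to, from TMM factors through single genes to geometric means. The bars are nearly even for TMM and Actb, 1759 against 3725 for Gapdh, and 644 against 7831 for Vim.

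A library scaling moves the 3 genes by about the same amount, so their order, Vim above Gapdh above Actb, is fixed by the ratios of counts. DESeq2 gave log2(FC) values of 0.082 for Gapdh, 0.011 for Actb and 0.332 for Vim, and limma-voom 0.080, 0.011 and 0.330. The shift between total counts and TMM, from -0.022 to 0.080 for Gapdh, was larger than the SE of any of the 3 genes, and it applied to Vim as well, from 0.228 to 0.331. For Gapdh and Actb it also changed the call, and for Vim the size only.

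**Figure D5:**
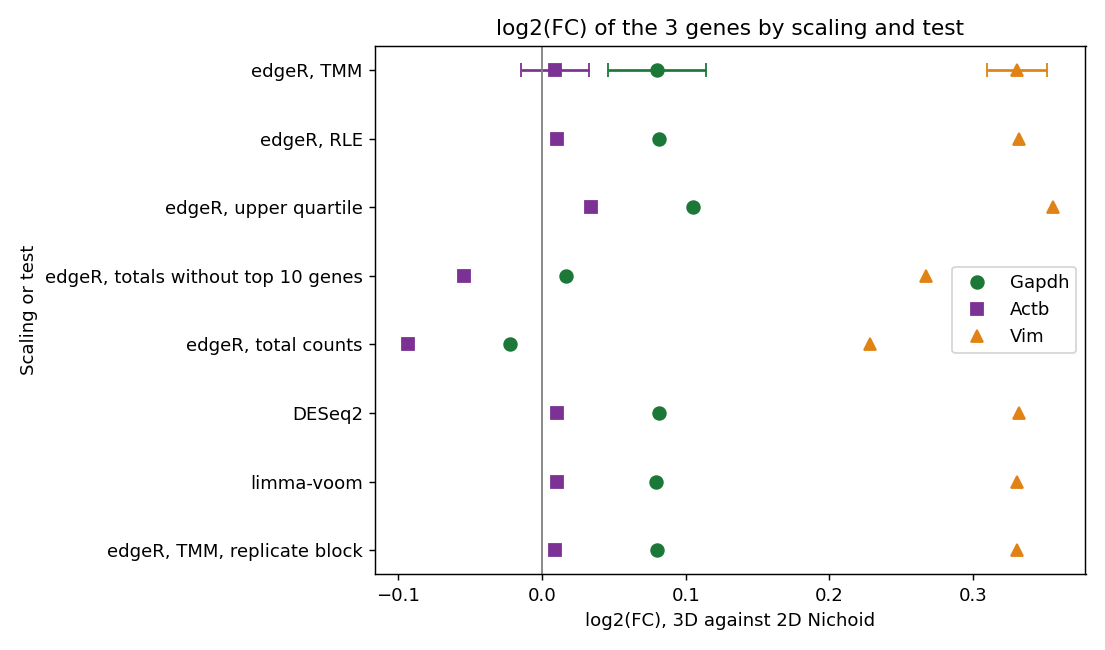
Log2(FC) of Gapdh, Actb and Vim, 3D against 2D Nichoids, under each scaling or test (rows), with 95% intervals for the TMM values. All 3 genes shift together with the scaling, Vim stays right of 0 in every row, and Gapdh and Actb fall on either side of it.

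The 3 genes may differ in how surely reads can be assigned to them, which was not measured. The RefSeq table on GRCr8 named 82 pseudogenes after Gapdh, 10 after Actb and none after Vim, and no other gene in it overlapped any of the 3. Pseudogenes under other names and related genes were not counted. The sources used here do not say how reads that align to several places were handled. Counts of Gapdh and Actb could therefore be lower than their transcripts would give, or hold reads of their copies, and the part of this in the differences was not tested.

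The genes most like each member were sought among the 1779 deeply counted genes, by the root mean square difference of centred log2 CPM over the 6 libraries. For Vim it was smallest in ENSRNOG00000002358 (0.0091), with a log2(FC) of 0.314 (adjusted p value 1.12e-14, edgeR). For Gapdh it was smallest in ENSRNOG00000054140 (0.0078), with a log2(FC) of 0.078 (adjusted p value 0.000675, edgeR). For Actb the nearest gene was 0.0074 away, with a log2(FC) of 0.0030 (adjusted p value 0.947, edgeR). These genes were picked by their likeness over the same 6 libraries. Their log2(FC) and adjusted p values therefore follow from the choice and are no separate result. Within a distance of 0.05 there were 360 genes around Gapdh, 327 around Actb and 177 around Vim.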

How the data were processed

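Single-end reads were aligned with STAR 2.7.0a and counted per Ensembl gene with HTSeq by the authors, and the deposited values are these raw counts, 1 library per file, without normalization. The submitters' processing notes name the build Rnor_6.0 and HTSeq 0.12.4, while the methods of the study name a later build and version. Strand, duplicates and multi-mapping reads are not described in the sources used here.

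Differential expression was tested in R 4.3.3 with edgeR 4.0.16, after filterByExpr had kept 13523 of 32883 genes and TMM had set the library scale. The quasi-likelihood test used robust dispersions, no covariates and Benjamini-Hochberg adjustment over all tested genes. SEs were the log2(FC) divided by the square root of F. For scaling to a member, the effective library sizes were set proportional to its counts, and it was left out of the test. Ratios were compared with exact permutation tests. DESeq2 1.42.0 and limma 3.58.1 were alternatives, and Python 3.11.15 was used for sequences and figures. The procedure was tested on simulated data. No pairing of the libraries by replicate letter was detected over all tested genes (correlations of deviations 0.013, -0.0082 and 0.014). Libraries of different letters were not compared in this way, so a weak pairing could be missed.

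The members and gene lists were chosen with earlier results of these data known. The genes to be named were the 3 members, listed related genes and the nearest genes in pattern. The RefSeq table used held 0 Ensembl identifiers, so the listed reference, glycolytic, actin, filament, tubulin, qPCR target and cell type marker genes were not analysed here.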

Additional observations from a re-analysis of the deposited data

How the results depend on the processing

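The scale decided the calls of Gapdh and Actb. With total counts only, the log2(FC) was -0.022 for Gapdh, which lost its call, and -0.093 for Actb, which gained one as lower, while 1638 genes were called higher and 4161 called lower in 3D Nichoids, with the median of all tested genes at -0.11. With total counts without the 10 most counted genes it was 0.017 for Gapdh, no longer past the threshold, and -0.054 for Actb, past the threshold as lower. With upper quartile factors it was 0.034 for Actb, past the threshold as higher. These changes follow from the scaling itself, which moves all genes together. Over the fits that leave out 1 library, the log2(FC) of Actb ranged from -0.0042 (without replicate A of the 3D Nichoids) to 0.022 and was also under 0 without replicate C of the 2D Nichoids (-0.0016), never past the threshold. Gapdh ranged from 0.069 to 0.093 and Vim from 0.323 to 0.338, always past it.

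Adding the letters as a replicate block changed no call of the 3 genes. The log2(FC) was then 0.080 for Gapdh, 0.0090 for Actb and 0.331 for Vim. Over all tested genes, 2587 were called higher and 2545 lower in 3D Nichoids with the block, against 2560 and 2549 without it. In place of all 3 genes, the geometric mean of Gapdh and Actb as scale, added after seeing the data, gave 3184 genes lower in 3D Nichoids against 4818. Counting error was below the spread between replicates in each gene and group, but by little for Gapdh in 2D Nichoids (0.426% against a CV of 0.502%).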
